A study of Mus musculus with 12 samples.

Results

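The 9 genes Arg1, Nos2, Acod1, Socs3, Retnla, Ear2, Chil3, Mgl2 and Il4ra, used as readouts of alternative and classical macrophage activation, were followed through single myeloid cells of PyMT breast tumors. They were taken by name from 31053 gene rows, and all 9 were present; Acod1 is the newer symbol of Irg1. Levels were described in tumor macrophages, defined as cells with at least 1 transcript of Csf1r, the receptor for macrophage colony-stimulating factor, and were split by C1qa, Ccr2 and Gpnmb, 3 genes outside the list. Arg1, Nos2 and Acod1 were higher in macrophages with Gpnmb, Arg1 by far the most, and Retnla, Ear2 and Mgl2 in macrophages with Ccr2. The differences of Nos2 and Acod1 by Gpnmb fell below 2-fold when cells with markers of another lineage were left out.

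Macrophages exposed to IL-4 or IL-13 signal through a receptor that contains the chain encoded by Il4ra and through the transcription factor STAT6, and in the mouse turn on genes such as Arg1, Retnla, Chil3 and Mgl2. Interferon-γ and microbial products turn on Nos2 and Acod1. Arg1 and Nos2 encode enzymes that use the same amino acid, arginine, to make ornithine or nitric oxide, and in tumors both are known for effects on T cells. Socs3 is an inhibitor of cytokine signaling that is induced through STAT3.

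In PyMT mice a mammary promoter drives the oncogene polyoma middle T, so that breast tumors arise spontaneously, and all samples carried this transgene. The groups were PyMT-PAR2WT mice and PyMT-PAR2G37I mice, whose protease-activated receptor 2 is altered so that coagulation factor Xa does not signal through it, with 3 samples of CD11c-selected cells and 3 of CD4/CD8-selected cells each. CD11c is an integrin of DCs and macrophages and was used for bead selection from late-stage tumors; T cells were selected from mid-size tumors. One matrix holds the 6 samples of a cell type together, and nothing in a barcode ties a cell to its sample. Genotypes were therefore not compared, no test was made, and replicate error is unknown. Levels are given as CPM, the UMIs (unique molecular identifiers, which count captured mRNA molecules) of a gene per 1000000 UMIs of a population, with exact 95% Poisson confidence intervals (CI). For shares of cells the Clopper-Pearson interval was used, and all intervals cover counting error only. The barcodes run through the alphabet 6 times in each matrix. These 6 stretches, called barcode runs, were not linked to samples or genotypes, and are given as the lowest, median and highest value. Barcodes present more than once numbered 76 in the CD11c-selected and 51 in the CD4/CD8-selected matrix.

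Among 11639 CD11c-selected cells with 200 or more detected genes, 7894 (67.8%) had Csf1r, with a median of 9537 UMIs and 95871576 UMIs in all. All 8 macrophage markers were detected in them, and 87.2% carried more markers of macrophages than of any other class. In those without C1qa this share was 35.6%, and 28.7% carried most markers of a DC class. Csf1r and C1qa are among the 8 macrophage markers, so the gates themselves raise the first share and lower the second. The 8 markers of the cDC2 class of DCs, which include neither gene, summed to 858 CPM without C1qa and 264 with it. The group without C1qa is therefore treated as a mixture and is not called macrophages below. In all Csf1r-positive cells the summed level of the 8 epithelial markers was 459.6 and that of the 8 neutrophil markers 222.8 CPM. Of the Csf1r-positive cells, 6935 had C1qa, a complement gene of tissue macrophages, 3555 had Ccr2, the chemokine receptor of inflammatory monocytes, and 780 had Gpnmb, a glycoprotein of lipid-laden macrophages. Depth moved with these groups: the median was 17998.5 UMIs in Gpnmb-positive against 8940 in Gpnmb-negative cells, and 11443 in Ccr2-positive against 7776 in Ccr2-negative cells.

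The genes lie on 6 chromosomes and all are protein coding (GENCODE M21, GRCm38). The enzymes and inducible genes of the first set are Arg1 (chr10:24915221-24927484, minus strand), Nos2 (chr11:78920787-78960254, plus strand), Acod1 (chr14:103046977-103056573, plus strand) and Socs3 (chr11:117966079-117970047, minus strand). The secreted proteins Retnla (chr16:48842551-48844461, plus strand), Ear2 (chr14:44102654-44103534, plus strand) and Chil3 (chr3:106147554-106167564, minus strand), the lectin Mgl2 (chr11:70130329-70137550, plus strand) and the receptor chain Il4ra (chr7:125552120-125579474, plus strand) make up the other set. Ear2 and Chil3 have near-identical copies. Of the stretches of 50 bases in the last 500 bases of the Ear2 transcript, 38.1% also occur in other genes, Ear1, Ear6 and Ear10 among them, and 17.1% of those of Chil3 occur in Chil4 or Gm6522, so their counts are uncertain to that extent. For Mgl2 this share was 4.21%, and its relative Clec10a held none of them; it was 0 for the other 6 genes.

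RefSeq promoter sequences (GRCm38.p6) were at hand for 7 of the 9 genes, all but Arg1 and Nos2. The sequences before the start of Retnla, Ear2 and Mgl2, which were all higher with Ccr2 and lower with Gpnmb, and of Chil3, which was rarely found in the same CD11c-selected cells as they were, are shown 5′ to 3′ on the strand of the gene, without bases that GENCODE places inside the gene. Capitals mark 3 motifs that were searched on both strands: TTC and GAA with 4 bases between them, the spacing bound by STAT6; TTC and GAA with 3 bases between them, the spacing bound by other STAT proteins; and TTGCNNAA, a C/EBP-type site.
Retnla, chr16:48842359-48842550, plus strand: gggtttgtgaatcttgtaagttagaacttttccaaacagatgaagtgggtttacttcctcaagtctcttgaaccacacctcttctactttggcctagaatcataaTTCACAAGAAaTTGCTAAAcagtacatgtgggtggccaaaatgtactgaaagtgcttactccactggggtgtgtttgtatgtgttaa
Ear2, chr14:44102404-44102653, plus strand: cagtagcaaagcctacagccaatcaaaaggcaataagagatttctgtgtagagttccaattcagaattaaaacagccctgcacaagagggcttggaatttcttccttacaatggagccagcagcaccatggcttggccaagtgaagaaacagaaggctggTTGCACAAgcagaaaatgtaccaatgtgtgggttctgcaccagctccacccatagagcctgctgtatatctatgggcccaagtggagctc
Mgl2, chr11:70130107-70130328, plus strand: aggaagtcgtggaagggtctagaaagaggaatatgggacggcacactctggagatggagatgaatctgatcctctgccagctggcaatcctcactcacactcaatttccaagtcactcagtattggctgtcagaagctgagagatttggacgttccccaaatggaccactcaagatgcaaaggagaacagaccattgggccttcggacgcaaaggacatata
Chil3, chr3:106167565-106167814, minus strand: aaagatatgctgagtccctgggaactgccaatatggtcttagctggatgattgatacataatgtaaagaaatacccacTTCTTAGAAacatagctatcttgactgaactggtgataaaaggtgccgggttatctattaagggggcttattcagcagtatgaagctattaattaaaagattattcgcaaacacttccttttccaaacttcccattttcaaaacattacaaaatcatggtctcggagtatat
The Retnla promoter held TTCACAAGAA followed, after a single base, by TTGCTAAA. Ear2 held only TTGCACAA, Mgl2 none of the 3 motifs, and Chil3 held TTCTTAGAA. The same 9 bases were in the RefSeq window of Socs3, all of which GENCODE places inside the gene. Acod1 and Il4ra held none. No motif of this search was common to Retnla, Ear2 and Mgl2, though Retnla and Ear2 both held the C/EBP-type site. Among 250-base windows of 32851 promoters, 5.85% held the first motif, 7.02% the second and 9.56% the third.

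Levels across all Csf1r-positive cells differed widely between the genes. Retnla, a secreted cysteine-rich protein of alternative activation, was the highest at 1477 CPM, followed by Socs3 at 349.7, Mgl2 at 279, Ear2, an eosinophil-associated ribonuclease, at 184, Il4ra at 156 and Arg1 at 105. Acod1, the enzyme that makes itaconate, stood at 20.2, Chil3, a chitinase-like protein, at 5.75 and Nos2, inducible nitric oxide synthase, at 3.26 (95% CI 2.91–3.65). No gene length was divided out, so the order between genes is a description only. Across the 6 barcode runs Arg1 ranged from 15.7 over a median of 72.7 to 231, Nos2 from 0.157 over 2.00 to 7.67 and Retnla from 824 over 1504 to 2754. Il4ra (143 to 177) and Socs3 (297 to 430) varied least. Runs were not ordered alike: run 5 was the highest for Arg1, Nos2 and Acod1, and run 4 for Retnla, Ear2 and Mgl2 and the lowest for Acod1.

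**Figure D1:**
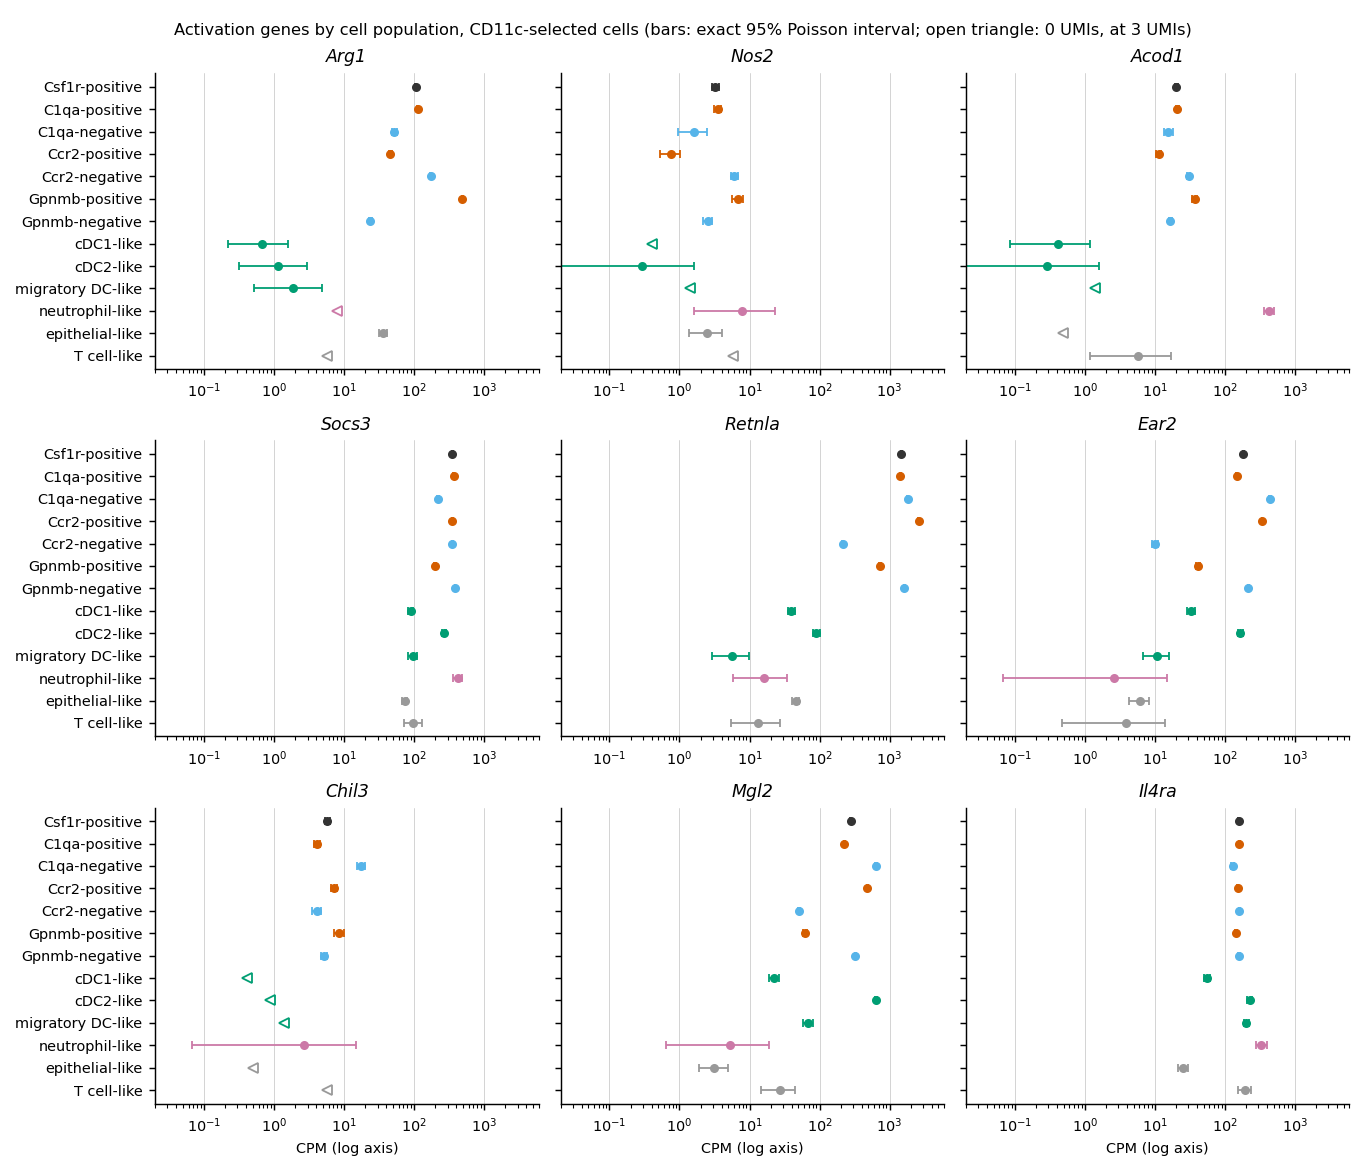
CPM (horizontal, log axis) of each of the 9 genes in 13 populations of CD11c-selected cells; points are sums over cells, bars exact 95% Poisson intervals, and open triangles mark 0 UMIs, drawn at the level of 3 UMIs. Arg1 stands at 486 in Gpnmb-positive and 23.8 in Gpnmb-negative macrophages, and Retnla, Ear2 and Mgl2 separate by Ccr2. Il4ra lies between 129 and 161 in the groups split by a single gene, lowest without C1qa.

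A few cells held most of the molecules of the variable genes. For Arg1, 43 cells (0.545% of Csf1r-positive cells) held 50% of all UMIs, with up to 351 in 1 cell, and for Retnla 85 cells held 50%, with up to 3181 in 1 cell. Nos2 was found in 112 cells, 15 of which held 50% of its 313 UMIs. By contrast, 1157 cells held 50% of the Il4ra UMIs and 1100 those of Socs3. After thinning each cell to 5000 UMIs, which kept 5829 cells, Socs3 was detected in 68.0% of cells, Il4ra in 50.5%, Mgl2 in 31.0%, Ear2 in 17.2%, Retnla in 16.8%, Arg1 in 5.94%, Acod1 in 4.13%, Chil3 in 2.09% and Nos2 in 0.772%. In cDC1-like cells at the same depth, Ear2 was seen in 11% of 435 cells, Mgl2 in 4.60%, Retnla in 2.53% and Arg1 in 0.230%. Among these listed genes, the share for Ear2 lay closest to that of macrophages as a ratio. Its level in CPM was 5.62 times lower in cDC1-like than in Csf1r-positive cells. T cell-like cells of this matrix gave 4 of 37 cells with Retnla (10.8%, 95% CI 3.03–25.4), an interval that reaches the macrophage share, but their level of Retnla was 13.4 CPM.

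Gpnmb-positive macrophages were high in Arg1 and low in Retnla, Ear2 and Mgl2. Arg1 stood at 486 CPM in them and at 23.8 in Gpnmb-negative macrophages, a 20.4-fold difference (95% CI 19.4–21.5), and 41.9% against 3.05% of cells had at least 1 UMI. In the barcode runs Arg1 lay at 122, 417 and 718 (lowest, median, highest) in Gpnmb-positive cells. In Gpnmb-negative cells it lay at 1.81, 15.2 and 57.7. For how many of all genes the runs lie apart in this way was not counted. Nos2 was 2.68-fold higher (6.75 against 2.52; 95% CI 2.11–3.39), in 5 of 6 runs, and Acod1 2.20-fold higher (36.8 against 16.7; 95% CI 2.00–2.43), in 6 of 6 runs. Thus 3 of the 9 genes were at least 2-fold higher, where 4.42% of all 12544 genes tested were, and 3 of 9 were at least 2-fold lower, where 9.53% were. The lower genes were Mgl2 (62.3 against 325, 5.22 times lower), Ear2 (41.1 against 214, 5.21 times lower) and Retnla (731 against 1636, 2.24 times lower), each in 6 of 6 runs. Socs3 was 1.94 times lower (197 against 382) in 6 of 6 runs, and Chil3 and Il4ra differed by less than 2-fold. Without run 3 Acod1 fell below 2-fold (log2 fold 0.97), and without run 5 Retnla did (log2 fold -0.78); without run 4 Retnla was lower still (-1.83). Their part in the result was not tested. When cells with 3 or more markers of another lineage were left out, which kept 4447 of the 7894 cells, Arg1 had a log2 fold of 3.83, but Nos2 (0.75) and Acod1 (0.91) were below 2-fold.

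The opposite pattern was seen for Ccr2. Ccr2-positive macrophages had Retnla at 2599.5 CPM against 216 without Ccr2, 12.1-fold higher (95% CI 11.8–12.3). Ear2 was 34.0-fold higher (338 against 9.94; 95% CI 31.0–37.5), and Mgl2 9.52-fold higher (482 against 50.6; 95% CI 9.12–9.94). Over the runs, Retnla ranged from 1562 to 3946 in Ccr2-positive and from 56.4 to 576 in Ccr2-negative cells. Ear2 ranged from 212 to 493 against 6.33 to 19, and Mgl2 from 330 to 689 against 27.2 to 80.8. The share of all genes with such a gap between runs was not counted here either. Arg1 was 3.75 times lower with Ccr2 (45.8 against 172), Nos2 8.13 times lower (0.749 against 6.09; 95% CI 5.77–11.7) and Acod1 2.66 times lower (11.4 against 30.2), each in 6 of 6 runs. The count was 3 of 9 genes at least 2-fold higher, beside 3.49% of all genes, and 3 of 9 at least 2-fold lower, beside 8.98%. Socs3 (349.5 against 349.8) and Il4ra (153 against 161) differed by less than 6% between the groups. Median-of-ratios scaling shifted all genes by -0.11 on the log2 scale in this comparison and left both counts at 3.

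**Figure D2:**
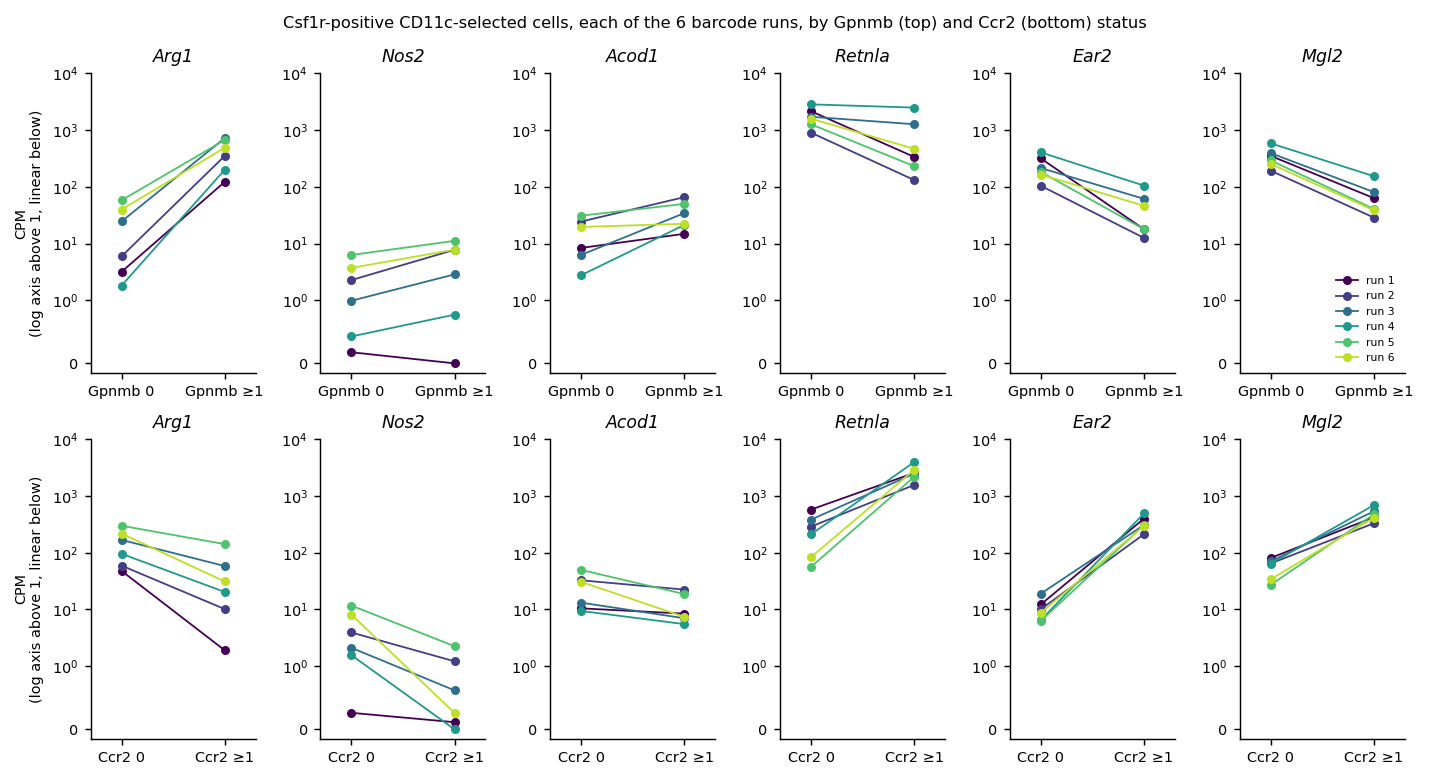
CPM (vertical, logarithmic above 1 and linear below) of 6 genes in Csf1r-positive CD11c-selected cells without and with Gpnmb (top row) or Ccr2 (bottom row); each line is 1 of the 6 barcode runs. All lines for Arg1 rise with Gpnmb and fall with Ccr2, and those for Retnla, Ear2 and Mgl2 run the other way; with Gpnmb, Retnla stays at 1264 in run 3 and at 2480.3 in run 4.

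To separate these patterns from depth, cells were thinned to 5000 UMIs and grouped by how many UMIs of Gpnmb or Ccr2 they had. Arg1 went from 24.7 CPM at 0 Gpnmb UMIs to 159 at 1, 768 at 2 or 3, 667 at 4 to 7 and 534 at 8 or more, so it was highest at intermediate Gpnmb. Retnla stood at 1264 at 0, still at 983 at 1, and then at 114, 32.7 and 32.9. Mgl2 and Ear2 were already down to 85.0 and 69.3 at 1 Gpnmb UMI, from 281 and 168. Cells with a single Gpnmb UMI thus carried both Arg1 and Retnla at intermediate levels as a group. With Ccr2, Retnla climbed at each step, from 325 over 1323, 1877 and 2576 to 3541 at 5 or more, whereas Mgl2 stayed between 489.6 and 497 from 2 UMIs onward. Arg1 went the other way, from 106 to 45.0, 33.5, 7.40 and 6.81.

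**Figure D3:**
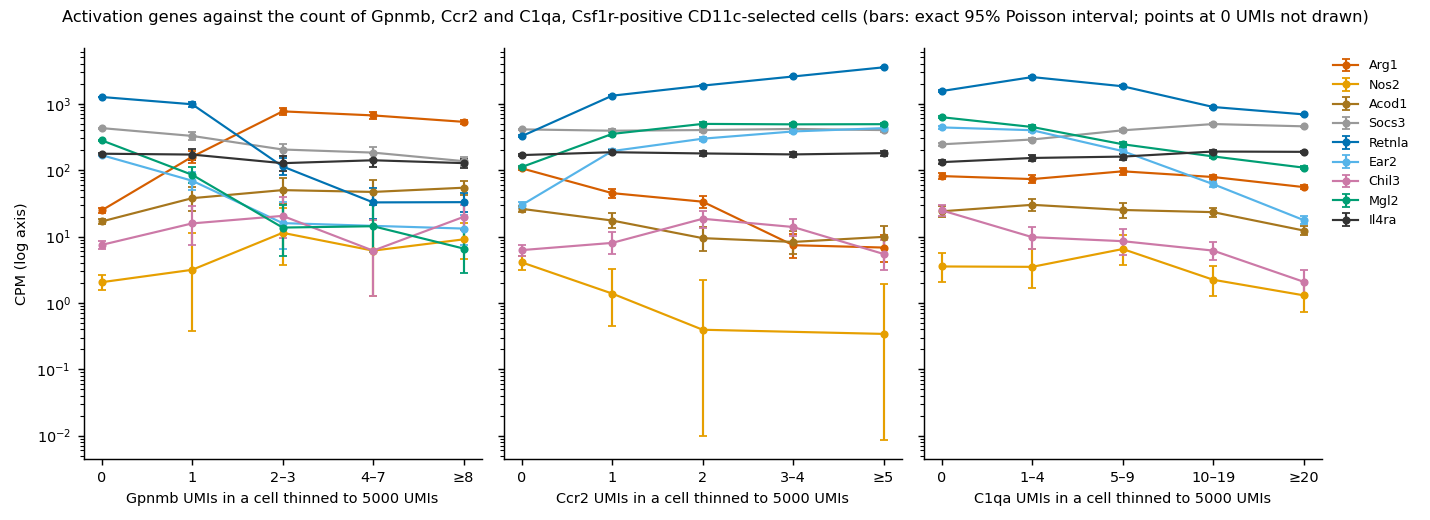
CPM (log axis) of the 9 genes against the number of Gpnmb, Ccr2 or C1qa UMIs in Csf1r-positive CD11c-selected cells thinned to 5000 UMIs; bars are exact 95% Poisson intervals and values of 0 are not drawn. Arg1 rises with Gpnmb to 768, Retnla rises with Ccr2 to 3541, and Il4ra stays between 127 and 191 in all 3 panels.

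Taking Gpnmb and Ccr2 at once, Retnla followed Ccr2 and Arg1 followed Gpnmb. Among C1qa-positive cells, Arg1 stood at 580.2 with Gpnmb alone, 292 with both, 16.0 with Ccr2 alone and 27.2 with neither. Nos2 and Acod1 differed less. In the same order, Nos2 stood at 9.06, 2.02, 0.545 and 5.19, and Acod1 at 41.1, 26.5, 9.42 and 26.1. Retnla stood at 33.1 with Gpnmb alone, 2349 with both, 2694 with Ccr2 alone and 298 with neither. The 212 cells with Gpnmb and Ccr2 were therefore high in both readouts as a group. Counted from all UMIs, without thinning, 13 of these cells (6.13%, 95% CI 3.31–10.3) had both Arg1 and Retnla, 54 Arg1 alone and 47 Retnla alone. If the 2 genes were spread independently over the group, 18.96 cells with both would be expected, so single cells with both were not in excess. Whether the group holds pairs of cells captured under 1 barcode was not tested; no doublet caller was run.

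In CD11c-selected cells C1qa status set apart Ear2, Mgl2 and Chil3 but not, in a stable way, Arg1. Ear2 was 3.02 times lower in C1qa-positive cells (147 against 444), Mgl2 2.84 times lower (227 against 644), both in 6 of 6 runs, and Chil3 4.24 times lower (4.11 against 17.4; 95% CI 3.55–5.05), in 5 of 6 runs. Thus 3 of 9 genes were at least 2-fold lower beside 10.3% of all genes, and 2 of 9, Arg1 (113 against 51.8) and Nos2 (3.5 against 1.61), at least 2-fold higher beside 7.56%. With Csf1r and C1qa read from cells thinned to 5000 UMIs, the log2 fold of Arg1 turned from 1.12 to -0.68 and that of Nos2 from 1.12 to -1.05, and in thinned cells Arg1 lay between 55.5 and 96.0 at every level of C1qa. Without barcode run 3 neither gene was 2-fold higher, and without run 5 the log2 fold of Arg1 was 1.76. Without the Csf1r-positive cells of a DC class, Arg1 had a log2 fold of 0.61, Nos2 of 0.57, Ear2 of -1.81, Mgl2 of -1.30 and Chil3 of -2.52. This choice was made after seeing the data. Il4ra was 1.25-fold higher with C1qa (160 against 129; 95% CI 1.18–1.31), in 6 of 6 runs. Retnla differed by 1.27 times (1430 against 1810), and was highest, at 2524, in thinned cells with 1 to 4 C1qa UMIs.

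Co-detection was counted in the 5829 thinned cells, against the number expected if the 2 genes of a pair were spread independently. Of 36 pairs, 8 were found in at least 2 times the expected number of cells and 10 in at most 0.5 times that number. Pairs drawn from all genes were not counted, so these counts have no background to be set against. The pairs within the trios named above were all among the 8. Retnla and Ear2 were found together in 509 cells against 169 expected, Retnla and Mgl2 in 634 against 303, and Ear2 and Mgl2 in 786 against 312, each above expectation in 6 of 6 runs. Of the cells with Ear2, 78.2% had Mgl2, against 21.2% of cells without Ear2. On the other side, Arg1 and Acod1 shared 42 cells against 14.3 expected (5 of 6 runs), Nos2 and Acod1 15 against 1.86, and Arg1 and Nos2, the enzymes that use arginine, 17 against 2.67 (3 of 5 runs with Nos2). Of the 45 cells with Nos2, 37.8% had Arg1, against 5.94% of all cells.

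Pairs of Arg1 or Nos2 with Retnla, Ear2 or Mgl2 were rare, as was Acod1 with Mgl2. Those of Acod1 with Retnla or Ear2 lay nearer to expectation. Nos2 and Retnla shared 0 cells where 7.55 were expected, Arg1 and Ear2 12 against 59.7, Arg1 and Mgl2 21 against 107, and Arg1 and Retnla 27 against 58.1. Acod1 shared 31 cells with Retnla against 40.4 expected, 28 with Ear2 against 41.6 and 36 with Mgl2 against 74.8. In terms of cells, 319 (5.47%) had Arg1 without Retnla, 951 (16.3%) Retnla without Arg1, 27 (0.463%) both, and 4532 (77.7%) neither, so most macrophages had no molecule of either gene at this depth. Arg1 with Gpnmb was found in 223 cells against 33.0 expected, and 64.5% of Arg1-positive cells had Gpnmb. Groups with a common marker share cells across all these pairs, so the pairs are not separate observations. Socs3 and Il4ra were near expectation with each other (2126 against 2001).

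**Figure D4:**
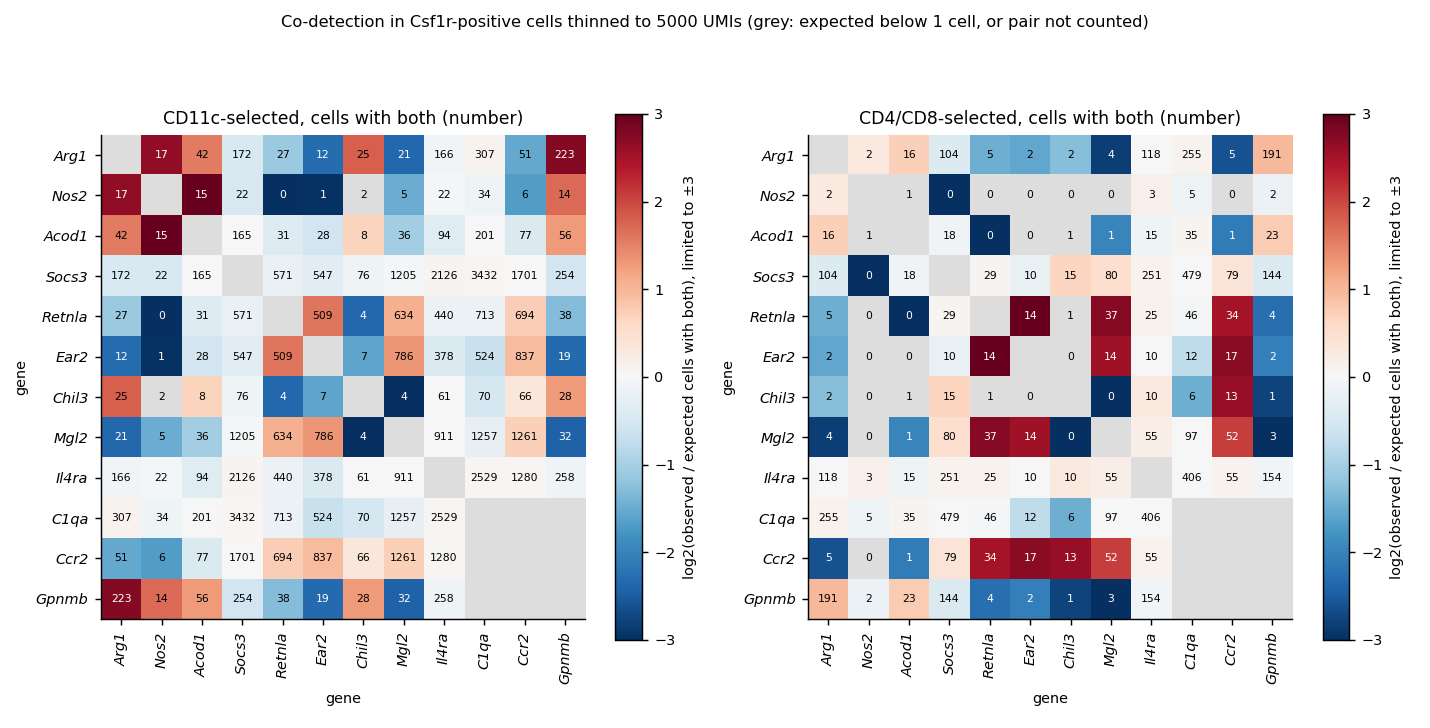
Numbers of Csf1r-positive cells thinned to 5000 UMIs that hold both genes of a pair (printed) and log2 of observed over expected cells (color, limited to ±3), in CD11c-selected (left) and CD4/CD8-selected cells (right). Arg1, Nos2 and Acod1 form one block and Retnla, Ear2 and Mgl2 another, with 509 cells for Retnla with Ear2 and 27 for Arg1 with Retnla on the left.

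Chil3, a common marker of alternative activation, was seldom found with Retnla or Mgl2 in single CD11c-selected cells, although it was lower with C1qa as Mgl2 and Ear2 were, and in CD4/CD8-selected cells it was higher with Ccr2 and lower with Gpnmb as Retnla, Ear2 and Mgl2 were. In CD11c-selected cells it was found with Mgl2 in 4 cells against 37.8 expected, with Retnla in 4 against 20.5 and with Ear2 in 7 against 21, and with Arg1 in 25 against 7.24, above expectation in 3 of 6 runs. Only 122 of the thinned cells had Chil3, and 28 cells held 50% of its 551 UMIs. Its levels were highest in C1qa-negative cells, 32.0 (95% CI 16.5–55.9) in the 30 cells with Gpnmb and without Ccr2 and 18.6 (95% CI 15.9–21.7) in the 617 cells with Ccr2 and without Gpnmb, and the intervals of these 2 groups overlap. It was 1.78-fold higher with Ccr2, in 4 of 6 runs, and 1.67-fold higher with Gpnmb, in 4 of 6 runs. Without run 5 the latter was a log2 fold of 0.10.

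Il4ra and Socs3 were broadly expressed. Il4ra, the receptor chain that both IL-4 and IL-13 need, lay between 115 and 168 CPM in the 7 groups of 30 or more cells made by C1qa, Ccr2 and Gpnmb together; the remaining group had 17 cells and stood at 110 (95% CI 67.9–168). Neighbors in this order had overlapping intervals. Socs3 was lowest among macrophages with C1qa and Gpnmb and without Ccr2 (163) and highest in those with C1qa only (434).

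DCs were low in most of the 9 genes. DC and neutrophil classes were made of cells with no Csf1r UMI and at least 3 of 8 markers of the class. In 506 cDC1-like cells all 9 genes were at least 2-fold lower than in Csf1r-positive cells, beside 26.0% of all genes, and 0 at least 2-fold higher, beside 7.14%; Retnla stood at 39.6, Socs3 at 88.9 and Il4ra at 55.3, and Nos2 and Chil3 had 0 UMIs, at least 8.03-fold and 14.1-fold lower at the limit of 3 UMIs. The log2 fold of Retnla was -5.22, and -7.28 without run 1. In 332 cDC2-like cells Mgl2, which is also known from dermal and other DCs, stood at 645 (95% CI 619–672), 2.31-fold above macrophages in 6 of 6 runs, the single gene at least 2-fold higher (6.22% of all genes were); 5 genes were at least 2-fold lower, beside 23.7%. Ear2 (165) was within 2-fold of macrophages there, whereas Retnla (90.4) was 16.3 times lower (log2 fold -4.78 without run 3) and Arg1 had 4 UMIs. Of the 635 cells of the cDC2 class, 303 had Csf1r and are counted among the Csf1r-positive cells. The 617 Csf1r-positive cells with Ccr2 and without C1qa and Gpnmb held Mgl2 at 815. Of these, 31.0% were of a DC class, and the other 426 stood at 664 (95% CI 643–685). In 254 migratory DC-like cells 8 of 9 genes were at least 2-fold lower, beside 35.5%, and 0 higher, beside 11%; Il4ra stood at 203 and was not lower.

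Neutrophil-like cells carried Acod1 and Il4ra but no Arg1. The 155 cells, with a median of 2473 UMIs, held all 8 neutrophil markers. Acod1 stood at 429 (95% CI 365–500), 21.2-fold above macrophages, with 162 UMIs in 39 cells (25.2%). It was higher in 4 of 6 runs, but run 4 held no neutrophil-like cells and could not be compared. Socs3 stood at 418 and Il4ra at 331, 2.11-fold above macrophages (95% CI 1.76–2.52). Arg1 had 0 UMIs, at least 13.3-fold lower at the limit of 3 UMIs, and Nos2 had 3 UMIs, a ratio of 2.43 with an interval from 0.499 to 7.17. In all, 3 of 9 genes were at least 2-fold higher, where 20.2% of all genes were, and 5 of 9 at least 2-fold lower, where 33.5% were. With median-of-ratios scaling, which shifted all genes by 0.64 on the log2 scale here, only Acod1 stayed at least 2-fold higher (log2 fold 3.76) and Il4ra fell to 0.44. Without run 6 Il4ra fell to a log2 fold of 0.70, without run 2 Nos2 fell to 0.04, without run 3 Acod1 to 3.79, and without run 6 Chil3 was no longer 2-fold lower (-0.03).

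Other genes of these pathways were counted from 4 lists. Of 24 genes of the IL-4/IL-13 arm, 17 had enough UMIs to be counted (at least 50 in both groups together). With Ccr2, 6 of them were at least 2-fold higher, beside 3.49% of all genes, and 0 lower, beside 8.98%, with a median log2 fold of 0.54 against -0.13 over all genes. The 6 were Irf4 (60.3 against 8.50), a transcription factor that acts with STAT6, Egr2 (35.4 against 13.1), the chemokine genes Ccl17 (29.5 against 9.34) and Ccl24 (25.1 against 9.99), Pdcd1lg2 (4.02 against 1.77), a ligand of PD-1, and Alox15 (1.03 against 0.221), a lipoxygenase. With Gpnmb, 8 of the 17 were at least 2-fold lower, beside 9.53% of all genes, and 0 higher, beside 4.42% (median log2 fold -0.91 against -0.04 over all genes), among them Mrc1, the mannose receptor (196 against 534), and Clec10a, a lectin related to Mgl2 (35.7 against 137).

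The classical arm had 20 of 22 genes counted, with a median log2 fold of -0.14 by Ccr2 and -0.38 by Gpnmb. The shares of all genes given above, 3.49% higher and 8.98% lower with Ccr2 and 4.42% and 9.53% with Gpnmb, apply here too. Of these genes, Il6 (42.7 against 14.4) and Ptgs2 (308 against 115), which encodes cyclooxygenase-2, were at least 2-fold higher with Ccr2 and 0 lower, and with Gpnmb 0 were higher and 3 lower, Il1b (942 against 2024), Cxcl9 (10.7 against 39.9) and Cd86 (104 against 240.4). In the list named STAT3 arm 1 of 13 genes, Cish (56.3 against 20.5), was at least 2-fold higher with Ccr2. In the same list 2, Il10 (42.2 against 135) and Osmr (0.889 against 4.29), were lower with Gpnmb. Whether STAT3 drives Cish or the other genes of this list in these cells was not tested. Of 9 genes of arginine and its cofactors, the arginine transporter gene Slc7a2 (62.3 against 12) and Arg2, the mitochondrial arginase (67.4 against 19.7), were at least 2-fold higher with Gpnmb, as Arg1 was, and Slc7a2 was lower with Ccr2 (9.37 against 33.7). The lists were chosen with earlier results of these data known.

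The CD4/CD8-selected matrix held 1113 Csf1r-positive cells among 22806, of which 99 carried most markers of T cells. Retnla, Ear2 and Mgl2 were again higher with Ccr2, and Arg1 with Gpnmb. Ear2 was 132-fold higher with Ccr2 (125 against 0.944), Retnla 51.8-fold (2783 against 53.8), Mgl2 16.0-fold (251 against 15.7), and Chil3 had 172 UMIs with Ccr2 and 1 without, a ratio of 1131 with an interval from 200 to 44932. Thus 4 of 8 genes counted were at least 2-fold higher (4.52% of all genes), and 2, Arg1 and Acod1, at least 2-fold lower (6.44%). Nos2, with 31 UMIs, was not counted. Arg1 was 5.89-fold higher with Gpnmb (738 against 125), in 4 of 5 runs with Gpnmb-positive cells and Arg1; 2 of 8 genes were at least 2-fold higher (2.95% of all genes) and 5 lower (12.3%). Chil3 was 45.2 times lower with Gpnmb (5 UMIs against 168), though higher in 2 of the 5 runs with Gpnmb-positive cells. Of its UMIs, 3 cells held 50%. By C1qa, 3 of 8 were at least 2-fold higher (13.1%) and 3 lower (19.1%). Among the higher genes, Arg1 differed 16.4-fold (506 against 30.9; 95% CI 12–23), in 5 of 5 runs, and in thinned cells it went from 10.8 at 0 C1qa UMIs to between 286 and 579 above that. Of the 110 cells without C1qa, 14 were of the macrophage class. Run 3 stood apart: it held 532 of the 1113 cells and 380 of the 448 Gpnmb-positive cells, and Arg1 was at 729.9 there and between 0 and 182 in the others. Without it Arg1 was still higher with Gpnmb (log2 fold 4.10), but Acod1 was less than 2-fold lower with Ccr2 (log2 fold -0.51) and less than 2-fold higher with C1qa (0.54). Without it the differences by Ccr2 were 28.3-fold for Retnla, 7.09-fold for Mgl2 and 386-fold for Chil3. By Gpnmb, the log2 fold of Chil3 went from -5.50 to -2.56, and by C1qa that of Arg1 from 4.03 to 3.14. In 7780 T cell-like cells thinned to 5000 UMIs, Arg1 was seen in 0.398%, against 27.0% of macrophages of the matrix, and Retnla in 0.193% against 5.33%.

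Arg1 was also found in epithelial-like cells, which hold the tumor cells. It stood at 36.5 CPM (95% CI 31.8–41.6) in 52 of 356 such cells with CD11c selection, and at 56.4 (95% CI 51.3–61.8) in 63 of 353 with CD4/CD8 selection. Relative to C1qa, there were 213 Arg1 UMIs per 100 C1qa UMIs in the first and 730.2 in the second. The values were 3.31 and 9.36 in Csf1r-positive cells, and 13.1 and 13.6 in those with Gpnmb. C1qa is among the 8 macrophage markers, and epithelial-like cells carry fewer of these than of epithelial markers. The gate itself thus lowers C1qa and raises this ratio. Whether the Arg1 came from macrophage RNA was not tested. In epithelial-like cells with none of the 8 macrophage markers, which lack C1qa by this choice, Arg1 stood at 75.1 and 55. Runs ranged from 4.05 over 42.2 to 157 in the first matrix and from 6.57 over 20.8 to 310 in the second, where leaving out the single cell with 190 UMIs gave 33.3 and leaving out run 2 gave 22.9. Retnla was different: 1 cell held 194 of its 278 UMIs in the first and 215 of 215 in the second.

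Genes with the most similar pattern over the 15 populations of CD11c-selected cells were sought among 9756 genes by Pearson correlation of log2(CPM + 1), as a description over populations that share a library. The closest to Retnla was Ms4a8a (r = 0.94), the closest to both Mgl2 (r = 0.96) and Ear2 (r = 0.89) was Clec4b1, and the closest to Arg1 was Tnfsf13os (r = 0.94). The closest to Acod1 was Dok3 (r = 0.92), with the neutrophil receptor gene Csf3r next (r = 0.91). Csf3r is among the markers that define the neutrophil-like cells, where Acod1 was highest, so its place follows in part from the gate. For Nos2 it was Slc40a1 (r = 0.90), the iron exporter ferroportin, for Chil3 F10 (r = 0.90), the gene of coagulation factor X, for Il4ra Tnfrsf1b (r = 0.87) and for Socs3 Zfp608 (r = 0.83).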

How the data were processed

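The study profiled CD11c-selected and CD4/CD8-selected tumor cells on the 10x Genomics platform, with 3 samples per genotype and cell type, after freezing and thawing. The authors deposited raw UMI counts, a whole number for each gene in each cell, pooled by cell type. The submitters' processing notes list Cell Ranger 3.0.2 and mm10; other filters are not given.

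Cells with 200 or more detected genes were kept (11639 and 22806 cells). UMIs were summed over the cells of a population, and genes with at least 50 UMIs in both groups together were compared at a fold of 2. Ratios have exact conditional 95% intervals, and a sum of 0 was set to 3 UMIs. A class needed 3 of its 8 markers. Thinning drew 5000 UMIs per cell (seed 1). No doublets were removed. The 9 genes, the marker lists, the 4 pathway lists (68 genes) and the rule for other named genes (the 3 closest to each of the 9 by correlation, of which the first are given) were chosen with earlier results of these data known. Scripts were tested on simulated data. Python 3.11.15, numpy 2.4.6, scipy 1.17.1 and pandas 2.3.3 were used. Alternatives changed the cell filter, the status, Csf1r and class thresholds, depth, scaling, weight of cells, lineage markers, mitochondrial share, minimum count and barcode runs.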

Additional observations from a re-analysis of the deposited data

Results flagged for a closer look

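Of 18 sets of 6 barcode runs checked (9 genes in Csf1r-positive cells of each matrix), 2 had a run far from the others by Dixon's criterion, which chance gives in about 1 in 20 sets. Arg1 in CD4/CD8-selected cells stood at 729.9 CPM in run 3, and at 182 in the nearest run; this run also held 71.4% Gpnmb-positive cells among its macrophages, against 0% to 17.2% in the other runs. Chil3 in CD4/CD8-selected cells stood at 97.9 CPM in run 6, and at 11 in the nearest run.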

How the results depend on the processing

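No paired analysis was possible because the barcodes name no sample, so that replicate numbers could not be used. The genotype fits, with edgeR, DESeq2 or a replicate block, were to be run only if barcodes named samples, and were not run. By Ccr2 status the lower count stayed at 3 under every alternative run, and the higher count was 3 or 4. By C1qa status, 2 genes were at least 2-fold higher. This count became 0 with C1qa at 3 or more UMIs, at 5000 UMIs and as a mean over cells. It was also 0 without cells carrying markers of another lineage, and without cells of a DC class (chosen after seeing the data). When a run was left out it was 0 to 2. Arg1 reversed at 5000 UMIs (log2 fold -0.68) and without cells carrying markers of another lineage (-0.13), and Nos2 at 5000 UMIs (-1.05). By Gpnmb status the higher count was 1 without cells carrying markers of another lineage, and 2 to 3 (lower, 2 to 4) when a run was left out. In neutrophil-like cells the higher count was 1 with median-of-ratios scaling and 1 whatever the Csf1r count. In the CD4/CD8-selected cells, with runs left out after seeing the data, the lower count by Ccr2 was 1 to 2. The co-detection counts stayed at 6 to 8 and 9 to 11 pairs; Nos2 with Chil3, seen in 2 cells, fell to 0 of expectation at other depths, without mixed cells and without run 4 or 5 (0 to 1.61 when a run was left out and cells were thinned anew). With no minimum count, genes higher and lower numbered 4176 and 3493 by C1qa, 2036 and 3763 by Ccr2, 2110 and 4756 by Gpnmb, 1839 and 8405 in cDC1-like, 1664 and 8492 in cDC2-like, 2395 and 10200 in migratory DC-like and 10721 (lower) in neutrophil-like cells. The cause of these changes was not tested. Depth limits Nos2 (313 UMIs) and Chil3 (551 UMIs) most.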
